A study of Gallus gallus with 8 samples.

Results

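The genes described here are DNA replication and cell-cycle genes, 40 listed symbols that stand for 38 genes, since CDC2 is an older symbol of CDK1 and KNTC2 of NDC80. All probe sets of the chicken array whose single platform symbol is one of these were taken. There were 64 such probe sets of 32 genes, among 38439 probe sets tested and 13009 genes with a symbol. CDC6, MCM4, CDK2, CDK4, CCNB2 and AURKA had no probe set under these symbols.

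A dividing cell loads the MCM helicase onto replication origins in G1, when cyclin D kinases inactivate the RB1 protein and free the E2F factors. It then copies its DNA in S phase with PCNA, the replication factor C loaders, polymerase alpha and its primase. In G2 and mitosis it runs CDK1 with cyclins A and B, and a spindle checkpoint built on BUB1, BUB1B and TTK. In chicks most retinal neurons have left the cycle before hatching, while the ciliary margin keeps dividing progenitors and Mueller glia can re-enter the cycle after injury. Some of these genes also work outside the cycle, in DNA repair or as regulators that keep neurons from dividing.

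Retinal RNA was taken from 4 White Leghorn chicks fitted with +6.9 D lenses on both eyes for 24 h, which places the image in front of the retina (myopic defocus). The control group was 4 chicks without lenses. Each array held the pooled retinas of 1 chick. All were aged 9 days at lens fitting. The authors deposited GC-RMA intensities, which are given here on the log2 scale. A log2 intensity of 4, an intensity of 16, was taken as a floor near background, because the files hold no detection calls. Whole retina was measured, so fewer cells of a type and less RNA per cell cannot be told apart. Intensities of different probe sets do not rank mRNA levels.

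All chicks are labelled male, but the W-linked gene HINTW, which only hens carry, lay at a log2 intensity of 13.68 to 14.14 on 6 arrays, and at 5.39 on control replicate 2 and 4.35 on control replicate 4. Values without these 2 control arrays are given below for the 6 genes whose difference moved most without them. No measured member lies on chromosome Z or W. All 4 lens arrays ran on fluidics station 2 and the 4 control arrays on station 1. By time of day the lens arrays were scanned before the control arrays, and scan dates were not compared. These run features and the lenses cannot be told apart. Of the cell type markers measured, 7 of 7 Mueller glia genes and 6 of 7 photoreceptor genes lay above 16 on all 8 arrays. So did 5 of 7 genes listed for progenitors and the ciliary margin, 3 of 11 leukocyte genes and 0 of 4 erythroid genes. The 5 were PAX6, SOX2, SIX6, SIX3 and FABP7, while NES lay above 16 on 7 arrays and COL9A1 on 1. Whether their signal came from progenitors was not tested. The leukocyte gene PTPRC lay at 2.52 or less on every array. The summed intensity of the 7 photoreceptor markers was 37104 to 46990 in lens-treated and 47786 to 53717 in control chicks, which did not overlap. Among these 7 markers the groups lay apart at GNAT2 alone, the cone transducin, with a log2 fold change of −1.31. At the other photoreceptor markers they overlapped. The log2 fold change was −0.16 at OPN1LW, −0.07 at PDE6C, −0.11 at ARR3 and −0.18 at GUCA1A. It was 0.40 at GNAT1 and 0.11 at PDE6G. A sum without GNAT2 was not taken, so the gap in the sum is not shown for the photoreceptor markers as a set. In the other marker lists the groups lay apart at GAD1 (log2 fold change 0.10), SLC6A9 (−0.19) and the leukocyte gene C1QB (0.55). Over all probe sets 2.86% were without overlap. Whether the photoreceptor signal bears on the members was not tested.

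Most genes of G1 control were detected in the retina of these chicks, and most genes of G2 and mitosis lay near background. At the floor of 16 the share over all members was near that of all genes. Of the 32 genes, 20 lay above 16 on all 8 arrays at their probe set with the highest mean, 3 on some arrays and 9 on none. The 20 genes make up 62.5%, against 63.6% of all genes with a symbol. With a floor of 64 the share was 37.5% of the members and 51.2% of all genes. Above 16 on all arrays were 7 of 8 genes of G1 control, 4 of 6 of the replication fork, 3 of 6 of origin licensing, 2 of 3 of nucleotide supply, both checkpoint kinases, and 2 of 7 of G2 and mitosis. TOP2A, MCM5 and CCNE1 passed the floor with almost the same value on most arrays, 5 to 6 of the 8 arrays lying within 0.05 (log2) of the lowest. Leaving out these 3 flat genes, which was decided with the values in view, 17 of 32 genes (53.1%) were left, against 60.5% of all genes.

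**Figure D1:**
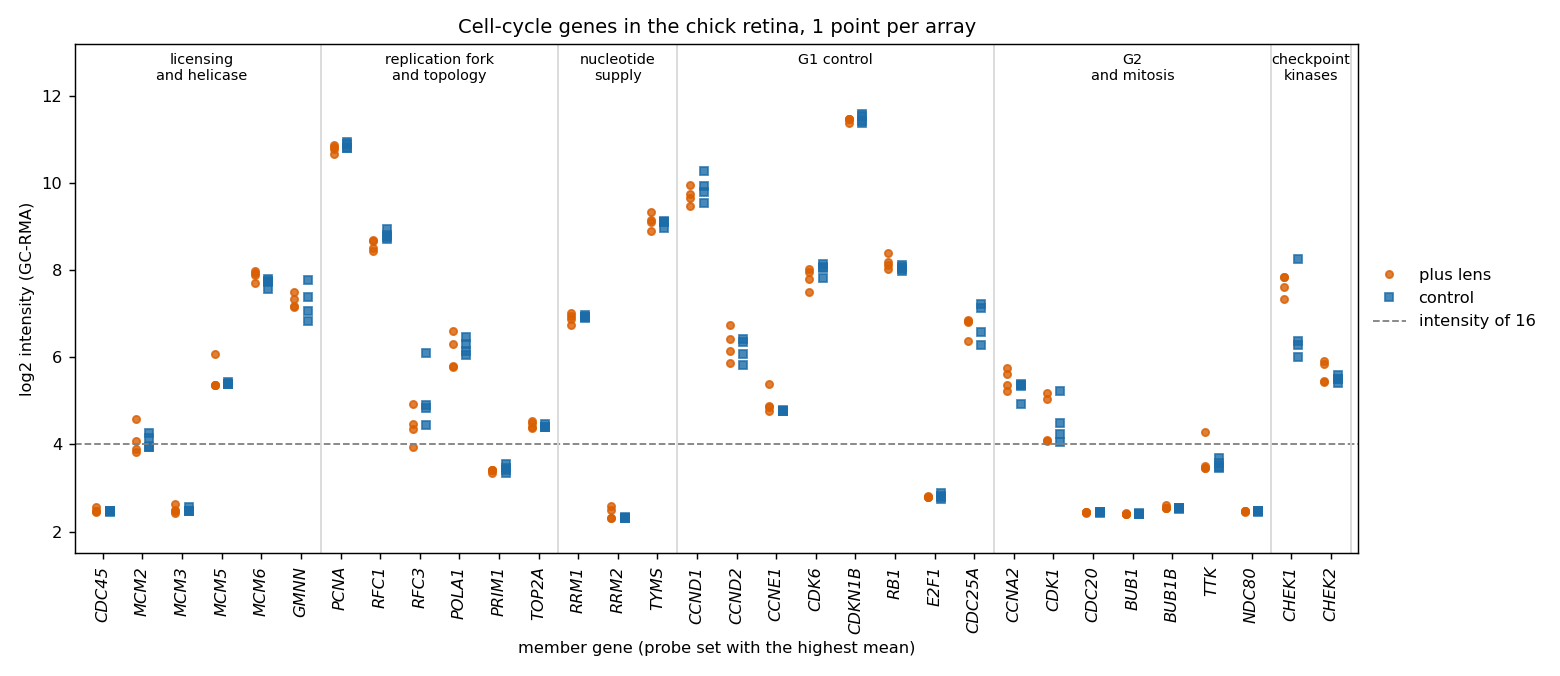
Log2 intensity (y axis) of the 32 measured cell-cycle genes (x axis, by role) at the probe set with the highest mean, 1 point per array, with 4 lens-treated chicks (circles) and 4 control chicks (squares). The dashed line marks an intensity of 16, above which 20 genes lay on all 8 arrays, and at CHEK1 1 control array lay above all lens arrays and 3 below them.

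Of the licensing and helicase genes, MCM6 and GMNN were clearly detected, MCM5 was nearly constant above the floor, and MCM2, MCM3 and CDC45 lay around or below it. MCM6, a subunit of the replicative helicase, had log2 intensities of 7.71, 7.90, 7.98 and 7.94 in lens-treated chicks, against 7.57, 7.72, 7.75 and 7.81 in control chicks. Its groups overlapped, and the log2 fold change was 0.17 (SE 0.07, limma adjusted p = 0.979 after Benjamini-Hochberg correction). The second brightest MCM6 probe set gave 0.61 (SE 0.27), with 1 lens array and 1 control array below 16, and 2 further sets gave 0.19 and −0.03. MCM5, another helicase subunit, lay at 5.37, 6.07, 5.37 and 5.37 in lens-treated and 5.38, 5.38, 5.43 and 5.38 in control chicks. Plus lens replicate 2 stood farthest apart there, and control replicate 3 lay slightly above the other control arrays. GMNN encodes geminin, which blocks relicensing of origins and also acts in neural differentiation. It lay between 7.17 and 7.51 in lens-treated and between 6.83 and 7.77 in control chicks, the lens range inside the control range. Its log2 fold change of 0.03 (SE 0.21) became −0.28 without control replicates 2 and 4. MCM2 lay above 16 on 4 arrays, and MCM3 and the helicase cofactor CDC45 on none, at 2.63 or less.

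Replication fork genes included PCNA, which hardly varied, and RFC1, the only gene whose groups did not overlap. PCNA, the sliding clamp of the polymerases, which also serves DNA repair, had 10.87, 10.68, 10.84 and 10.80 in lens-treated chicks, against 10.94, 10.81, 10.81 and 10.91 in control chicks. The 8 values span 0.26 (log2) and the log2 fold change was −0.07 (SE 0.05, adjusted p = 0.979 from limma). RFC1, the large subunit of the clamp loader, had 8.51, 8.44, 8.67 and 8.69 in lens-treated chicks, against 8.71, 8.81, 8.95 and 8.77 in control chicks. Every lens array lay below every control array, by a log2 fold change of −0.23 (SE 0.08), which is 1.17-fold. RFC1 did not pass (limma adjusted p = 0.979; two-sided exact permutation p = 0.0286, the lowest value this design can reach). The other RFC1 probe sets, both above 16 on all arrays, ran the opposite way, with 0.20 (SE 0.10) and 0.10 (SE 0.17).

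In the other fork genes the groups overlapped. RFC3, a small clamp loader subunit, lay between 3.93 and 4.93 in lens-treated and between 4.44 and 6.10 in control chicks, and the log2 fold change was −0.65 (SE 0.39), or −1.08 without control replicates 2 and 4. POLA1, the catalytic subunit of polymerase alpha, had 5.78 to 6.61 in lens-treated and 6.05 to 6.46 in control chicks. PRIM1, the catalytic primase subunit, stayed at 3.56 or less. TOP2A, the DNA topoisomerase of dividing cells and a common marker of proliferation, had 4.50, 4.54, 4.38 and 4.40 in lens-treated chicks, against 4.40, 4.40, 4.48 and 4.40 in control chicks. All 8 values lay just above the floor, and its second probe set stayed at 2.51 or less.

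Of the genes of nucleotide supply, RRM1 and TYMS were detected and RRM2 was not, and the groups overlapped in all 3. RRM1, the large subunit of ribonucleotide reductase, lay between 6.75 and 7.02 in lens-treated and between 6.90 and 6.96 in control chicks. RRM2, the small subunit that is made in S phase, had 2.58, 2.31, 2.32 and 2.50 in lens-treated and 2.31, 2.32, 2.30 and 2.32 in control chicks, below 16 on every array. Of the 2 listed subunits of this enzyme only the large one was thus detected. RRM2 was measured by 1 probe set, and no other subunit was looked up. TYMS, thymidylate synthase, lay between 8.91 and 9.35 in lens-treated and between 8.96 and 9.12 in control chicks.

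Of the 8 measured regulators of G1, E2F1 alone lay below the floor. CDKN1B encodes p27, an inhibitor of cyclin-dependent kinases that holds cells out of the cycle. It had 11.47, 11.49, 11.37 and 11.48 in lens-treated chicks, against 11.38, 11.42, 11.59 and 11.54 in control chicks, and the log2 fold change was −0.03 (SE 0.05, adjusted p = 0.996 from limma). Cyclin D1 (CCND1), the G1 cyclin of retinal progenitors that mature glia can also express, had 9.47, 9.96, 9.76 and 9.65 in lens-treated chicks, against 10.28, 9.93, 9.81 and 9.54 in control chicks. Control replicate 1 was the highest and plus lens replicate 1 the lowest, and the log2 fold change was −0.18 (SE 0.17) at this probe set and 0.00 (SE 0.15) at the other. Without control replicates 2 and 4 the first was −0.33.

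Cyclin D2 (CCND2) lay between 5.88 and 6.75 in lens-treated and between 5.81 and 6.43 in control chicks, and its 3 probe sets had log2 fold changes of −0.11 to 0.31. CDK6, a kinase partner of the D cyclins, lay between 7.50 and 8.04 in lens-treated and between 7.81 and 8.13 in control chicks, and the log2 fold change was −0.19 (SE 0.13). RB1, the retinoblastoma protein that restrains E2F factors, had a log2 fold change of 0.14 (SE 0.08), CDC25A, a phosphatase that activates cyclin-dependent kinases, of −0.08 (SE 0.24), and cyclin E1 (CCNE1) of 0.20 (SE 0.13). CDC25A changed side without control replicates 2 and 4, to 0.28, since these 2 arrays were its highest controls, at 7.13 and 7.22. At CCNE1 plus lens replicate 3 lay at 5.39 and the other 7 arrays between 4.76 and 4.89. The other CCNE1 probe sets stayed at 3.10 or less. E2F1, a transcription factor that switches on S phase genes, lay at 2.89 or less.

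Among genes of G2 and mitosis, CCNA2 and CDK1 alone lay above 16 on all arrays. CDK1, the kinase that drives entry into mitosis, had 4.07, 4.11, 5.19 and 5.05 in lens-treated chicks, against 4.49, 5.24, 4.06 and 4.24 in control chicks. In both groups the values ran from just above the floor to 5.19 or more, and the log2 fold change was 0.10 (SE 0.37), or 0.33 without control replicates 2 and 4. Cyclin A2 (CCNA2), a partner of CDK1 and CDK2, lay between 5.22 and 5.75 in lens-treated and between 4.94 and 5.39 in control chicks. Its log2 fold change was 0.23 (SE 0.15), and its second probe set stayed at 2.14 or less. TTK, a kinase of the spindle checkpoint, passed the floor on plus lens replicate 3 only, at 4.29. CDC20, which activates the anaphase promoting complex, the checkpoint kinases BUB1 and BUB1B, and NDC80, which ties microtubules to kinetochores, lay at 2.62 or less on every array at all of their probe sets. The chicken annotation lists CCNB2 as a synonym of CCNB1, a mitotic cyclin which was not on the list. The CCNB1 probe set was looked up afterwards and was not counted as CCNB2. It lay above 16 on all arrays, with 6.19, 5.92, 6.01 and 5.95 in lens-treated chicks, against 5.90, 5.95, 5.73 and 5.76 in control chicks (log2 fold change 0.18, SE 0.08, adjusted p = 0.979 from limma).

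CHEK1, the checkpoint kinase that slows the cycle when replication forks stall, gave the largest difference and the largest spread of the list. At its brightest probe set it had 7.85, 7.63, 7.35 and 7.84 in lens-treated chicks, against 6.38, 6.01, 6.27 and 8.25 in control chicks. At the next it had 7.01, 6.44, 6.51 and 6.75 in lens-treated chicks, against 4.75, 5.02, 5.25 and 6.80 in control chicks. At both, control replicates 1 to 3 lay below every lens array, and control replicate 4 lay above all or most of them, so that the groups overlapped. The dimmest CHEK1 probe set stayed at 2.44 or less on all arrays.

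The log2 fold change of CHEK1 was 0.94 (SE 0.50) and 1.22 (SE 0.45) at these probe sets, 1.92-fold and 2.33-fold, and neither passed (limma adjusted p = 0.979; two-sided exact permutation p = 0.143 and 0.114). Without control replicate 4 the log2 fold changes were 1.45 (SE 0.16) and 1.67 (SE 0.18), with an adjusted p of 0.307 from limma at both, and without control replicates 2 and 4 they were 1.34 and 1.68. With array weights in limma they were 0.59 and 0.95. The spread of CHEK1 within the groups (SD 0.75, log2) was exceeded by 0.878% of the probe sets above 16 on all arrays. Both bright probe sets carry the suffix that Affymetrix gives to sets matching several transcripts, as does the RFC1 probe set without overlap, and such sets can pick up other transcripts. The suffix is not particular to these sets. It also stands on the dimmest RFC1 set, which ran the opposite way. The brightest sets of CCND1, GMNN, MCM5, MCM6, RRM1 and POLA1 carry it too. The dimmest CHEK1 set, below 16 on all arrays, lacks it. Whether other transcripts added to the CHEK1 or RFC1 values was not tested. The nearest measured genes on chromosome 24, CDON and EI24, had log2 fold changes of −0.12 (SE 0.11) and 0.15 (SE 0.16). Control replicate 4 was also the highest array for RPE65, a gene of the pigment epithelium, at 10.48, with 8.19 to 9.18 on the lens arrays and 8.69 to 9.60 on the other control arrays. TTR, another such marker above 16 on all arrays, was highest there too, at 5.60, with 5.33 or less on the other arrays. The remaining pigment epithelium markers did not all follow RPE65. MITF lay at 7.18 on control replicate 4, below every lens array (7.34 to 7.74), and TYRP1 and RDH5 were highest on control replicate 2, at 5.47 and 4.07. Of 8 such markers 3 lay above 16 on all arrays, TYR, PMEL and BEST1 on none, and the summed intensity, of which RPE65 was the main part, was 536 to 859 in lens-treated and 655 to 1670 in control chicks. The oligodendrocyte genes MBP, SOX10 and OLIG2 were also highest on control replicate 4, at 12.90, 5.66 and 8.58. For OLIG2 plus lens replicate 4 lay close to it, at 8.53. MOG, the other marker measured, lay at 2.64 or less on every array and was highest on control replicate 2. The summed intensity of 4 oligodendrocyte markers was 4735 to 5929 in lens-treated and 3199 to 8104 in control chicks. These markers were singled out after their values were seen, and their part in the CHEK1 values was not tested. CHEK2, the kinase that answers double-strand breaks, lay between 5.44 and 5.92 in lens-treated and between 5.42 and 5.59 in control chicks. Its second probe set stayed at 2.83 or less.

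**Figure D2:**
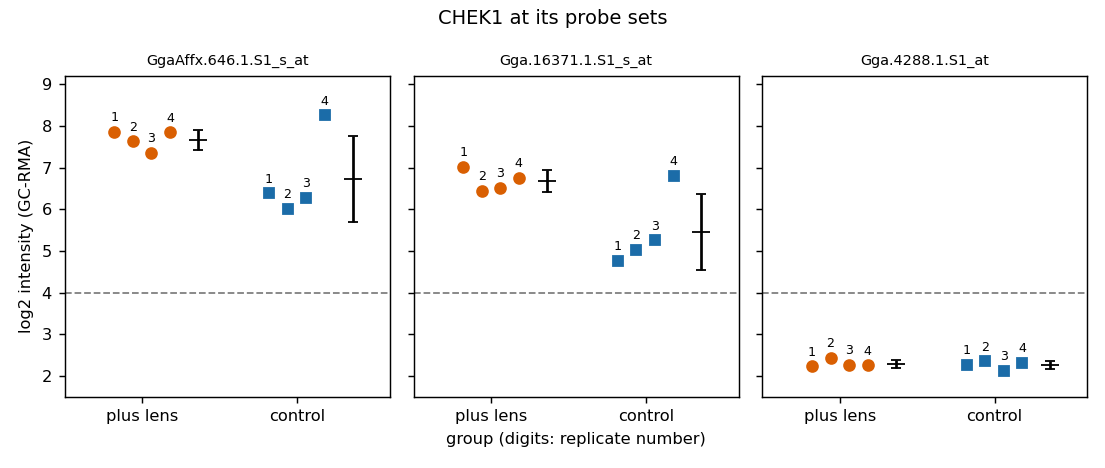
Log2 intensity of CHEK1 (y axis) at its 3 probe sets in 4 lens-treated and 4 control chicks (x axis). Digits are replicate numbers, bars the mean and SD, and the dashed line an intensity of 16, and at both bright probe sets control replicate 4 lies apart from the other 3 control arrays.

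No cell-cycle gene passed the test for a difference between lens-treated and control chicks. With limma, a linear model that moderates the variance of each probe set, a call required 1.5-fold and an adjusted p under 0.06. It called 0 of the 64 member probe sets and 0% of all 38439, and the methods' t-test called 0 as well after adjustment. At an unadjusted p under 0.05 limma listed 2 of 64 (3.12%), at RFC1 and CHEK1, against 4.53% of all probe sets. With at least 1.5-fold as well it listed 1 of 64, at CHEK1, against 0.421%, and the groups did not overlap at 1 of 64, at RFC1, against 2.86%. At the brightest probe set of each gene 19 members were higher (59.4%, against 52.9% of all genes with a symbol) and 13 lower in lens-treated chicks, with a median log2 fold change of 0.02, against 0.00 over all probe sets. With 16 of 32 genes the split was even without control replicate 3, and 13 were higher and 19 lower without plus lens replicate 3.

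**Figure D3:**
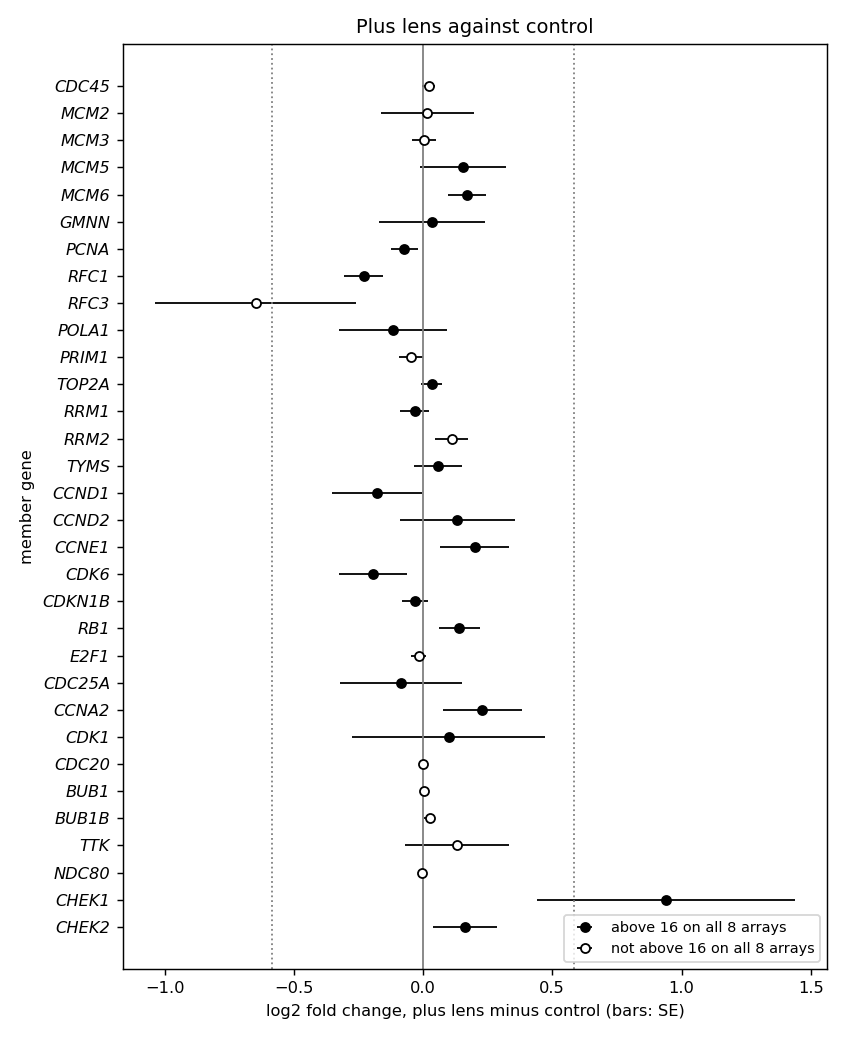
Log2 fold change of 32 cell-cycle genes (y axis), lens-treated minus control (x axis), with bars for the SE from limma. Filled points are the 20 genes above 16 on all 8 arrays, dotted lines mark 1.5-fold, and CHEK1 and RFC3 alone lie beyond them.

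Further genes of replication and the cycle, listed by role with earlier results of these data known, likewise held no called gene. Of 136 genes 113 were measured, 52 of them above 16 on all arrays and 50 on none, against 63.6% and 31.9% of all genes with a symbol. At the brightest probe set 0 passed, and the median log2 fold change was 0.00. Of the 113 genes 4 were higher and 1 lower at an unadjusted p under 0.05 from limma, against 4.53% of all probe sets in both directions. ASF1A, a histone chaperone, had the smallest p on the higher side, with 7.74, 7.76, 7.84 and 7.78 in lens-treated chicks, against 7.66, 7.39, 7.55 and 7.49 in control chicks. Its log2 fold change was 0.26 (SE 0.06, adjusted p = 0.903 from limma), and the groups did not overlap. They did not overlap at MAD2L1 either, with a log2 fold change of 0.33 (SE 0.08, adjusted p = 0.916 from limma). Over all probe sets 2.86% were without overlap. RPA2, a subunit of the protein that coats single-stranded DNA, had the smallest p on the lower side. At its brightest probe set it had 8.88, 8.99, 8.98 and 8.95 in lens-treated chicks, against 9.17, 9.10, 9.03 and 9.03 in control chicks, and the log2 fold change was −0.13 (SE 0.04, adjusted p = 0.976 from limma). Its other probe set, added after its values were seen, had 8.53, 8.55, 8.55 and 8.59 in lens-treated chicks, against 8.73, 8.76, 8.78 and 8.74 in control chicks. The log2 fold change there was −0.20 (SE 0.02), under 1.5-fold, at an adjusted p of 0.0990 from limma. No probe set had a smaller adjusted p, but several probe sets can share the same value after this adjustment. Whether another probe set had a smaller unadjusted p is not given here. Both probe sets of RPA2 separated the groups in the same direction.

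From chick to chick the cell-cycle genes correlated as often below 0 as above it. Covariation was computed over the 8 arrays on deviations from the group means. It used the 13 genes above 16 on all arrays that were taken as bound to a phase of the cycle, with CCNE1 and CDC25A of G1 control among them. Over the 78 pairs of these 13 genes the median Pearson's r was 0.01, with 39 pairs above 0. Over all pairs of the 16978 probe sets above 16 on all arrays the median was 0.005. The middle of the distribution ran from −0.32 to 0.27 among these genes (quartiles) and from −0.31 to 0.32 among all probe sets. The 3 flat genes TOP2A, MCM5 and CCNE1 are among the 13, and without them the median was 0.11 over 10 genes.

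TOP2A served as the gene against which the others were set. Of its 12 pairs, CDK1 ran opposite to it (r = −0.82, permutation p = 0.0182; Spearman's rho = −0.79, permutation p = 0.0279; adjusted over the 12 pairs, p = 0.157 and 0.168). MCM5 ran with it (r = 0.71, permutation p = 0.0261; rho = 0.83, permutation p = 0.0154; adjusted p = 0.157 and 0.168). Without the 2 arrays farthest from the TOP2A median r was −0.76 for CDK1 and 0.15 for MCM5, so the relation with MCM5 rests on those arrays. No pair passed this adjustment. With arrays permuted only within their group, the MCM5 pair passed (adjusted exact permutation p = 0.0417) and the CDK1 pair did not (adjusted p = 0.365, same test). TOP2A spans only 4.38 to 4.54 and MCM5 was nearly constant on 6 arrays. With CDK1 as the fixed gene, added because TOP2A lay near background, the smallest adjusted permutation p was 0.218.

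Among all 190 pairs of the 20 members above 16, the closest was that of cyclin D2 with CDK6, its partner kinase. CCND2 and CDK6 had r = 0.91 (permutation p = 0.000818) and rho = 0.88 (permutation p = 0.00724), and r = 0.85 without the 2 arrays farthest from the CCND2 median. CCND2 ran opposite to PCNA (r = −0.91, permutation p = 0.00241; rho = −0.88, permutation p = 0.00724), with r = −0.93 without those arrays. Without control replicates 2 and 4 these values of r were 0.96 and −0.91, and with the group means left in they were 0.66 and −0.89. With arrays permuted only within their group, the permutation p was 0.00694 for CCND2 with CDK6 and 0.0174 for CCND2 with PCNA. Both pairs were picked from 190 by their size, and none of the 190 passed after adjustment in either form of the permutation, the smallest adjusted permutation p being 0.156. All pairs use the brightest probe set of each gene. A second CDK6 probe set, also above 16 on all arrays, was not tested for covariation. Among control arrays it was highest on replicate 1 (6.13) and lowest on replicate 3 (5.63), where CCND2 was lowest (5.81) and highest (6.43). Among lens arrays both were lowest on replicate 3, at 5.42 and 5.88.

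**Figure D4:**
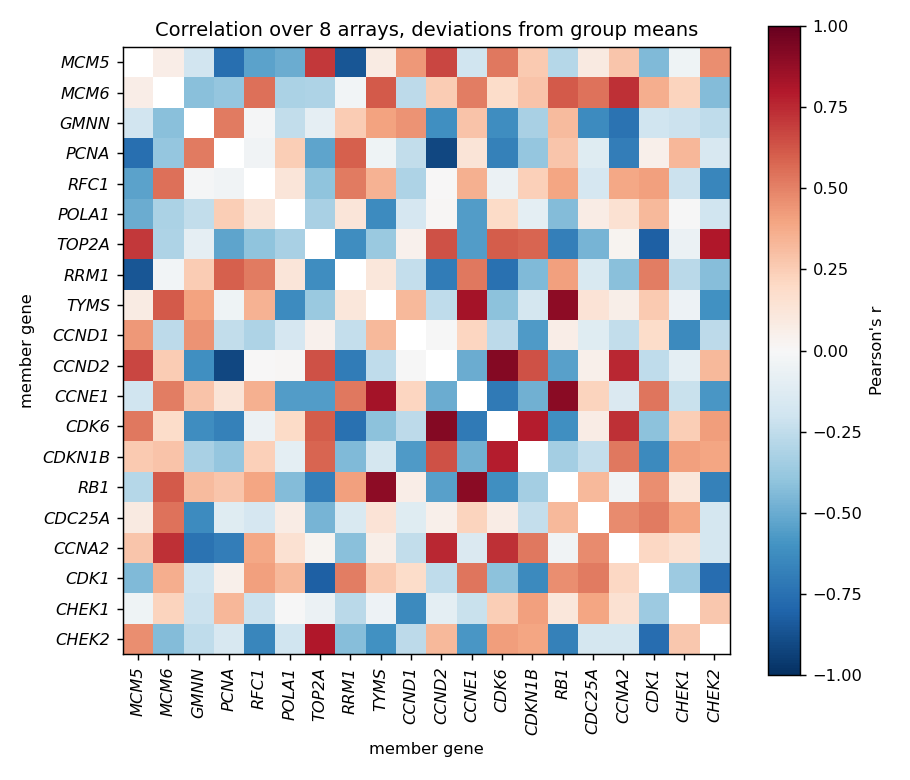
Pearson's r over 8 arrays between the 20 cell-cycle genes above an intensity of 16 on all arrays (both axes), from deviations from the group means, red above 0 and blue below. CCND2 and CDK6 (r = 0.91) and CCND2 and PCNA (r = −0.91) are the extremes, and 92 of 190 pairs lie above 0.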

How the data were processed

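Retinal RNA of 4 lens-treated and 4 untreated chicks was hybridized to Affymetrix GeneChip Chicken Genome arrays, 1 chick per array. The authors deposited intensities per probe set on a linear scale, made with GC-RMA, which corrects the background by probe GC content, scales the arrays to each other and can leave nearly constant values at dim probe sets. No GC-RMA version is stated in the labels or methods. The deposited experiment records (other text) gave fluidics station, module and the order of scan times of day only. Within each group the module number was the same as the replicate number.

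Log2 intensities were tested as deposited, and 96 control probe sets were left out of 38535. Symbols came from the platform annotation (27168 probe sets with 1 symbol, 177 with several, 11094 with none) and chromosomes from RefSeq for GRCg7b, matched for 26853. Groups were compared as lens-treated minus control with limma 3.58.1 in R 4.3.3, without a block, with Benjamini-Hochberg adjustment over all probe sets. Calls needed an adjusted p under 0.06 and 1.5-fold. The fit was tested on simulated data. A gene was represented by its probe set with the highest mean over 8 arrays. All members are named, and per-array values are given for those with an unadjusted p under 0.05 or no overlap and for CDK1, TOP2A, PCNA, MCM5, RRM2, CCND1 and CDKN1B; per-array values of MCM6, CCNB1 and a second RPA2 probe set were added after their values were seen. Single genes carry an exact permutation test over 70 relabelings and pairs one over all pairings of the arrays. The members and lists were chosen with earlier results of these data known. Separate chicks are replicates, and 4 per group limit the precision. Alternatives were other limma settings, the methods' t-test, a dim filter, a floor, quantile normalization, a replicate block, a term for W-linked signal and leaving out arrays. Promoter motifs were not analysed here.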

Additional observations from a re-analysis of the deposited data

Results flagged for a closer look

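In 12 of 64 groups of 4 arrays, at the brightest probe set of a gene, 1 array lay far from the other 3 by Dixon's ratio, where chance flags about 1 in 20 groups. The limit was passed by 18.8% of the groups of these genes and by 12.4% of the groups of all genes with a symbol, a difference that was not tested. Of the 12, 7 belong to genes above an intensity of 16 on all arrays (17.5%, against 7.2% of all genes above it). CHEK1 lay at 8.25 on control replicate 4 and at 6.01 to 6.38 on the other control arrays. CDC25A lay at 6.38 on plus lens replicate 1, against 6.82 to 6.85 on the other lens arrays, and CCNA2 at 4.94 on control replicate 1, against 5.35 to 5.39. TYMS lay at 8.96 on control replicate 2, against 9.10 to 9.12. MCM5 lay at 6.07 on plus lens replicate 2, against 5.37 on the other lens arrays, and at 5.43 on control replicate 3, against 5.38, and TOP2A at 4.48 on control replicate 3, against 4.40. The remaining 5 were dim: TTK at 4.29 on plus lens replicate 3 (others 3.46 to 3.50), BUB1B at 2.62 on plus lens replicate 4, CDC45 at 2.57 and PRIM1 at 3.34 on plus lens replicate 3, and MCM3 at 2.57 on control replicate 1.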

How the results depend on the processing

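Under all 17 alternatives 0 member probe sets were called at an adjusted p under 0.06 and 1.5-fold, and 0 without the fold threshold. The count of members at an unadjusted p under 0.05 was 4 with array weights and with the replicate block, against 2, and 1 to 4 when 1 array was left out. The count was 1 without plus lens replicate 3, control replicate 1 or control replicate 2, and 4 without control replicate 4. Over all 38439 probe sets the count was 2260 with array weights and 2125 with the replicate block, against 1741. It was 1499 to 2115 when 1 array was left out. Same-numbered arrays of the 2 groups had the same module number, and their deviations correlated by at most 0.17. Such correlations cannot decide whether replicate numbers pair the chicks. The median log2 fold change of the members was 0.0073 with array weights, 0.034 with the dim filter, 0 with values under 16 raised to 16 and 0.0065 with quantile normalization, against 0.02, and −0.0048 to 0.026 when 1 array was left out. With a floor of 64, 12 genes were counted as detected, against 20. The median r stayed within its jackknife SE of 0.13 under all alternatives, at −0.10 to 0.11. When W-linked signal entered the model, CDC25A had a log2 fold change of 0.28 and GMNN of −0.28. Leaving out control replicates 2 and 4 gives the same fold changes by construction, since these arrays alone lack the signal. Over all probe sets 3 were called with W-linked signal in the model, against 0, none of them a member. The cause of these shifts was not tested. Signals near background limit what can be said of 12 genes.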
